A study of Homo sapiens with 8 samples.

Results

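KRT8, KRT18, KRT19, EPCAM and CDH1 are genes of simple epithelia, and here they were followed in T cells. Each was found through its gene symbol in the platform annotation of the array, which gave 1 probe set for each of the 5 genes, out of 17709 named and 21448 transcript probe sets in all. RNA was read on 8 Affymetrix arrays of the 1-colour kind, 1 for each group. The MT-1 groups, a line from adult T cell leukaemia (ATL), were MT-1 with 500 nM OR21 plus 2500 nM EPZ-6438 (the combination), MT-1 with 500 nM OR21, MT-1 with 2500 nM EPZ-6438, and untreated MT-1. The MT-2 groups, a T cell line carrying HTLV-1, were MT-2 with 100 nM OR21 plus 500 nM EPZ-6438, MT-2 with 100 nM OR21, MT-2 with 500 nM EPZ-6438, and untreated MT-2. OR21 is a DNA demethylating agent and EPZ-6438 inhibits EZH2, the methyltransferase that places the repressive mark H3K27me3. All cells were harvested after 96 h, with compound added at seeding and again at 48 h, and the doses differed between the lines.

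Keratins are the intermediate filament proteins of epithelia, and each filament is built from pairs of a type II and a type I keratin. KRT8 (type II) and KRT18 (type I) form the pair of simple epithelia such as liver and gut, KRT19 is a further type I keratin of ductal and glandular cells, and lymphocytes normally build their filaments from vimentin instead. EPCAM is an epithelial surface adhesion molecule, and CDH1 (E-cadherin) is the adhesion protein of epithelial junctions, whose promoter is a textbook case of silencing by DNA methylation in carcinomas.

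Levels are log2 values as deposited. The highest value in the table, 18.9, is above the log2 of the brightest reading a 16-bit scanner gives, so the values were rescaled in a way the labels do not describe. Fold changes hold only if the base is 2 and the rescaling kept differences as they were. Each array's background was taken as the 95th percentile over its 612 negative controls, which lay between 7.19 and 7.80. Where only 1 of the arrays compared stood above it, the difference against the background level is given as a bound ("at least"), beside the difference as deposited. Where neither did, the levels are given without a bound. No group was repeated, so no spread between replicates and no test stands behind a difference within MT-1 or within MT-2. Between 8126 and 9718 transcript probe sets per array stood above background. Across probe sets, Pearson's r was 0.9554 to 0.9936 for the 12 pairs within a line and 0.8707 to 0.885 for the 16 pairs between MT-2 and MT-1. Of 16 T cell markers on the array, 9 stood above background on every MT-1 array and 6 or 7 on the MT-2 arrays. CD3D, CD3E and CD3G, chains of the T cell receptor complex, stood above it on none, while the interleukin 2 receptor chain IL2RA lay between 15.10 and 16.96 on all 8. VIM, the vimentin gene, lay between 15.26 and 16.44.

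With both compounds, MT-1 cells carried KRT8, KRT18, KRT19 and EPCAM above background, whereas untreated MT-1 cells carried only KRT8 above it, by 0.31. None of these 4 genes was higher by 1 log2 unit or more in MT-2 under any treatment. CDH1 did not reach background on any of the 8 arrays. The plot of levels by array shows these patterns gene by gene.

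**Figure D1:**
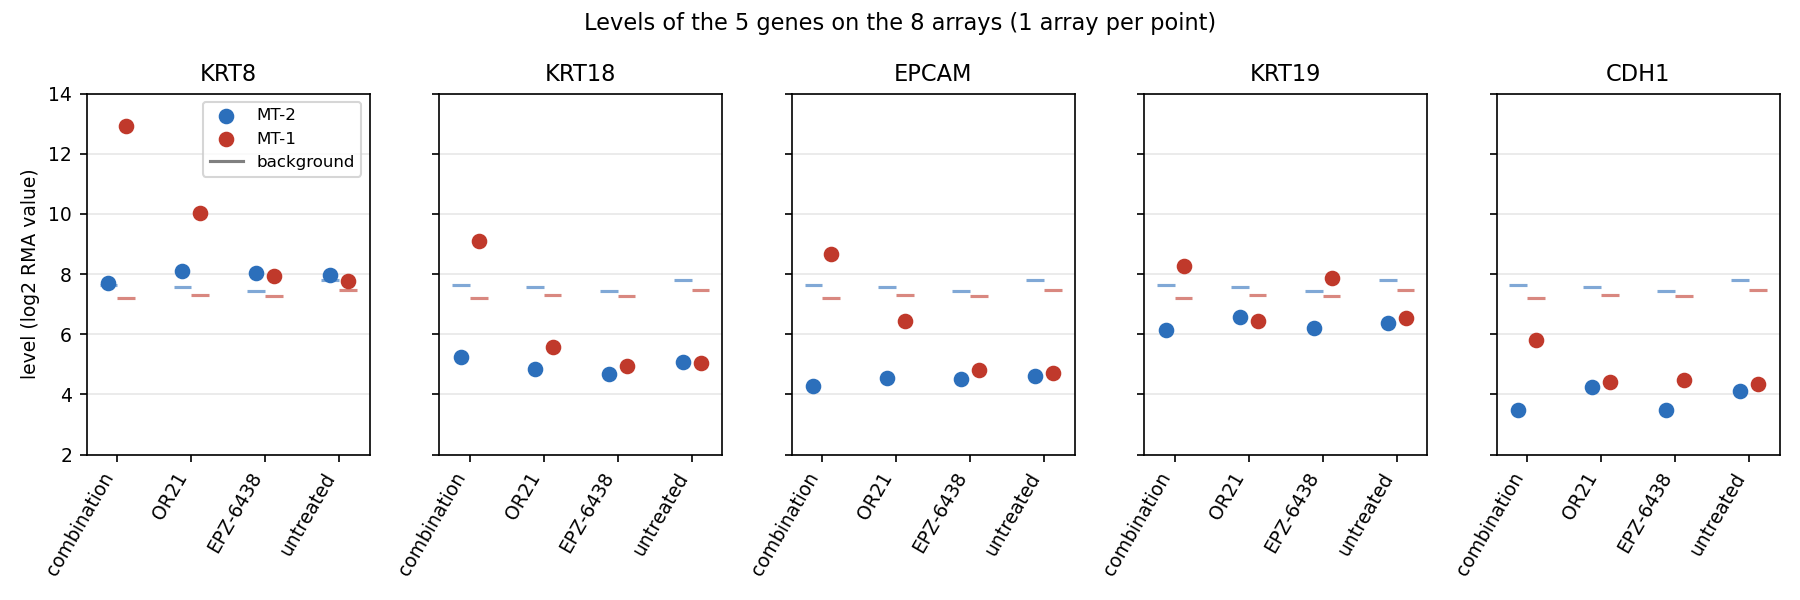
Level (log2 RMA value) of each gene on each array, 1 point per array, by treatment (horizontal axis) and line (colour), with the background of each array as a short bar. The MT-1 combination point is the highest of the 8 in each panel, and in MT-2 no gene but KRT8 lies over its bars.

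KRT8, the type II keratin of simple epithelia, was the only one of the 5 genes above background on every array. In MT-1 it stood at 12.91 with the combination, 10.02 with OR21, 7.93 with EPZ-6438 and 7.77 in untreated cells. In MT-2 it stood at 7.69 with the combination, 8.10 with OR21, 8.02 with EPZ-6438 and 7.95 in untreated cells. All 8 values were above background, but 6 of them by at most 0.66, the MT-2 combination by 0.05, and the MT-1 OR21 and combination arrays stood apart from the other 6. Against untreated MT-1 cells the difference was 5.14 with the combination (35.3-fold), 2.25 with OR21 (4.77-fold) and 0.16 with EPZ-6438. In MT-2 the differences were -0.27 with the combination, 0.15 with OR21 and 0.07 with EPZ-6438. Among the 12942 probe sets whose highest value reached the median of the table (6.573), KRT8 ranked 89th from the top for the MT-1 combination and 174th for MT-1 OR21. The combination exceeded OR21 alone by 2.89 and EPZ-6438 alone by 4.98 in MT-1. RefSeq names 52 pseudogenes after KRT8, 68 after KRT18 and 5 after KRT19, so these probe sets may also read near-identical copies, and their values are uncertain to that extent.

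The sequence before a KRT8 start is shown because demethylating agents act on methylation at CpG sites. Beside it are those of KRT5, another type II keratin, and CLDN1, a tight junction gene, both described below. RefSeq (GRCh38.p14) lists for KRT8 the start that gives chr12:52926420-52926719 on the minus strand, for KRT5 chr12:52520345-52520644 on the minus strand and for CLDN1 chr3:190322397-190322696 on the minus strand. Each window runs from 250 bases before to 50 after a start, 5′ to 3′, with every CpG dinucleotide (letters CG) in capitals.
KRT8: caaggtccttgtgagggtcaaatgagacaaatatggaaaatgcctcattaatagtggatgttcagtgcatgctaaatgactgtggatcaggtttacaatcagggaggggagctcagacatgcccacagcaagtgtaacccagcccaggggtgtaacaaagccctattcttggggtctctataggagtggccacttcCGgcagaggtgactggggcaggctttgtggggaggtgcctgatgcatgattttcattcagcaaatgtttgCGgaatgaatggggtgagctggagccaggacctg
KRT5: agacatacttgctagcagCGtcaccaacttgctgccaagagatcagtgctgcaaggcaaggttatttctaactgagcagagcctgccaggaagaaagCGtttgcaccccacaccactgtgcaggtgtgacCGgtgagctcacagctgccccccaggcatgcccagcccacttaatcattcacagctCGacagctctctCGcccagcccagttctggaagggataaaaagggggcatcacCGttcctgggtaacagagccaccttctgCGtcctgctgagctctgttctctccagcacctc
CLDN1: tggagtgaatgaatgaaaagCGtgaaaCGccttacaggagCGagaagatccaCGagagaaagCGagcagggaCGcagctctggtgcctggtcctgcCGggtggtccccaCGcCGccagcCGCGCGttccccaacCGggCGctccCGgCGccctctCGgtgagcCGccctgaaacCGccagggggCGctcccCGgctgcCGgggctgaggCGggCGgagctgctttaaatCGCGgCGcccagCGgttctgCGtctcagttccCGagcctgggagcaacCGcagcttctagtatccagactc
The KRT8 window held 2 CpG, the KRT5 window 7 and the CLDN1 window 31, against a median of 14 over 35116 such windows, and 89.0% of all windows held as many CpG as KRT8 or more. The letters CACCTG, the core bound by ZEB and SNAI repressors, were searched on both strands. They occurred once in the KRT5 window, in neither of the others, and in 20.6% of all windows. DNA methylation was not measured on these arrays. RefSeq holds other starts of KRT8 than the one shown, so its CpG count describes this window only and not the KRT8 promoter in general. No window was available for KRT18, KRT19, EPCAM or CDH1.

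KRT18, the type I partner of KRT8 and its neighbour on chromosome 12, stood above background on 1 array. In MT-1 it stood at 9.10 with the combination, 5.56 with OR21, 4.94 with EPZ-6438 and 5.03 in untreated cells. In MT-2 it stood at 5.24 with the combination, 4.83 with OR21, 4.67 with EPZ-6438 and 5.09 in untreated cells. The MT-1 combination array alone was high, and the other 7 lay between 4.67 and 5.56, at least 1.73 under background. The difference between the combination and untreated MT-1 cells was 4.07 as deposited and at least 1.64 against background. Against OR21 alone it was at least 1.80.

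EPCAM, the epithelial adhesion molecule, stood above background on 1 array, like KRT18. It stood at 8.66 with the combination, 6.45 with OR21, 4.81 with EPZ-6438 and 4.71 in untreated MT-1 cells. In MT-2 it stood at 4.27 with the combination, 4.55 with OR21, 4.53 with EPZ-6438 and 4.60 in untreated cells. Its combination level in MT-1 was the only one of the 8 above background, and the OR21 level, although 1.75 over the untreated level as deposited, lay 0.84 under background. The combination differed from untreated MT-1 cells by 3.95 as deposited and by at least 1.20 against background. Against OR21 alone it was higher by at least 1.36.

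KRT19, the type I keratin of ducts and glands, was higher in MT-1 with EPZ-6438 and with the combination, and not with OR21. In MT-1 it stood at 8.27 with the combination, 6.45 with OR21, 7.86 with EPZ-6438 and 6.53 in untreated cells. In MT-2 it stood at 6.14 with the combination, 6.58 with OR21, 6.21 with EPZ-6438 and 6.39 in untreated cells. The MT-1 arrays that had received EPZ-6438 were the 2 highest of the 8. EPZ-6438 alone differed from untreated MT-1 cells by 1.33 as deposited (at least 0.40) and the combination by 1.74 (at least 0.81). The combination differed from EPZ-6438 alone by 0.41.

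CDH1 lay under background on all 8 arrays, so no bound is given for any difference. Its deposited levels in MT-1 were 5.80 with the combination, 4.40 with OR21, 4.47 with EPZ-6438 and 4.35 in untreated cells. In MT-2 they were 3.47 with the combination, 4.25 with OR21, 3.48 with EPZ-6438 and 4.12 in untreated cells. The MT-1 combination array was again the highest, 1.40 under its background.

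Read together by treatment, the 5 genes were most often higher with the combination in MT-1. As deposited, all 5 were higher by 1 or more there, CDH1 with no array above background and KRT19 with a bound of 0.81, against 8.11% of the 21448 transcript probe sets and 11.2% of the 12942 kept, and 4 of the 5 stood above background. KRT18, KRT19 and EPCAM were above background on the combination array and not on the untreated array, as were 8.49% of kept probe sets. KRT18 and EPCAM passed the filter on low values only through that array, CDH1 did not pass, and so the counts describe the genes without supporting a difference. With OR21 in MT-1, KRT8 and EPCAM were higher by 1 or more as deposited (5.35% of kept probe sets), with EPZ-6438 only KRT19 (1.03%). In MT-2 the count was 0 for the combination, OR21 and EPZ-6438, where 5.05%, 2.36% and 0.896% of kept probe sets were higher. None was lower by 1 or more in any comparison with untreated cells, against 9.64%, 3.75% and 0.294% for the combination, OR21 and EPZ-6438 in MT-1 and 1.95%, 1.69% and 0.355% in MT-2. The median difference over kept probe sets lay between -0.06 and -0.02. In bulk RNA, more cells carrying a transcript and more RNA per cell cannot be told apart.

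**Figure D2:**
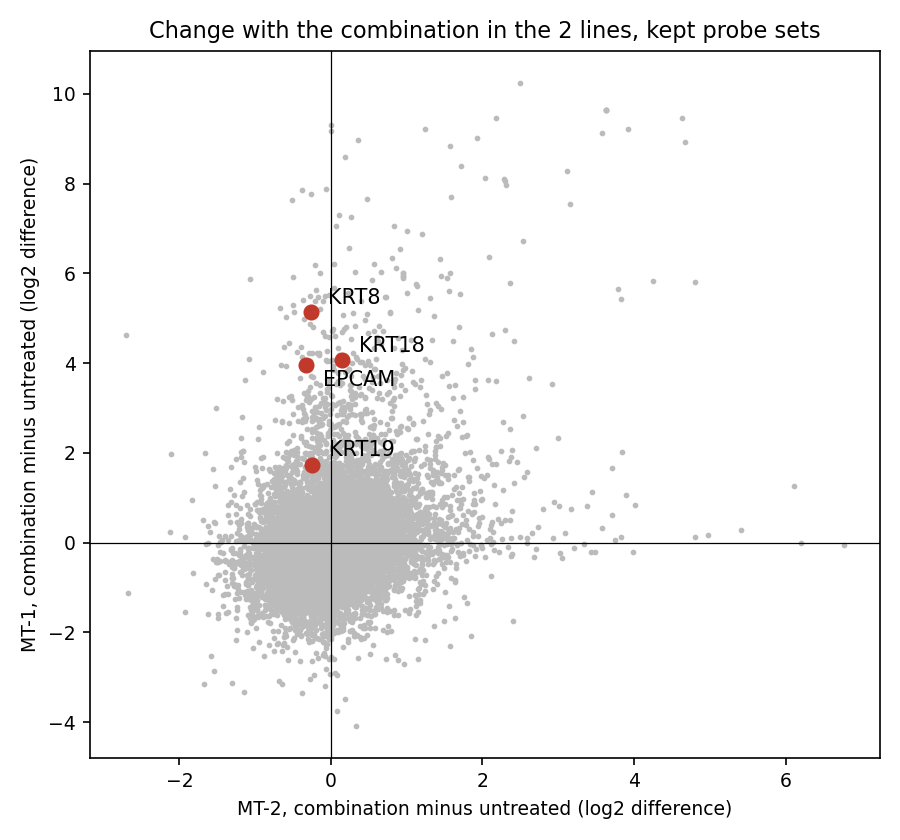
Log2 difference between combination and untreated cells in MT-2 (horizontal) and MT-1 (vertical) for the 12942 kept probe sets (grey), as deposited. KRT8, KRT18, EPCAM and KRT19 (red) lie between 1.74 and 5.14 in MT-1 and between -0.33 and 0.15 in MT-2. In MT-2 only KRT8 was above background, so the positions of KRT18, EPCAM and KRT19 there are not measured differences.

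Before treatment, KRT8 was the only one of the 5 genes above background in either line. KRT8 was at 7.95 in MT-2 and 7.77 in MT-1, a difference of 0.18 where the median over kept probe sets was -0.295. With the combination, KRT8 was lower in MT-2 than in MT-1 by 5.22 on the log2 scale (7.69 in MT-2 and 12.91 in MT-1).

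The study's design text asks for the combined effect, so the combination was compared with what the OR21 and EPZ-6438 differences add up to. For KRT8 in MT-1, where all 4 arrays were above background, the combination exceeded that sum by 2.73, which ranked 52nd of 12942. An excess of 1 or more was found in 5.3% of kept probe sets, around a median of 0.02. In MT-2 the KRT8 value was -0.49 around a median of 0.08. KRT18 (3.62) and EPCAM (2.10) also lay over the sum in MT-1 as deposited, but each had 3 of its 4 arrays under background. KRT19 lay over it by 0.49 with 2 of 4 arrays under background. Relative to OR21 alone, the combination in MT-1 was higher by 1 or more in all 4 kept genes as deposited, KRT19 with a bound of 0.97. Over kept probe sets that share was 5.77%, which gives no support here, since KRT18 and EPCAM were kept through the combination array.

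**Figure D3:**
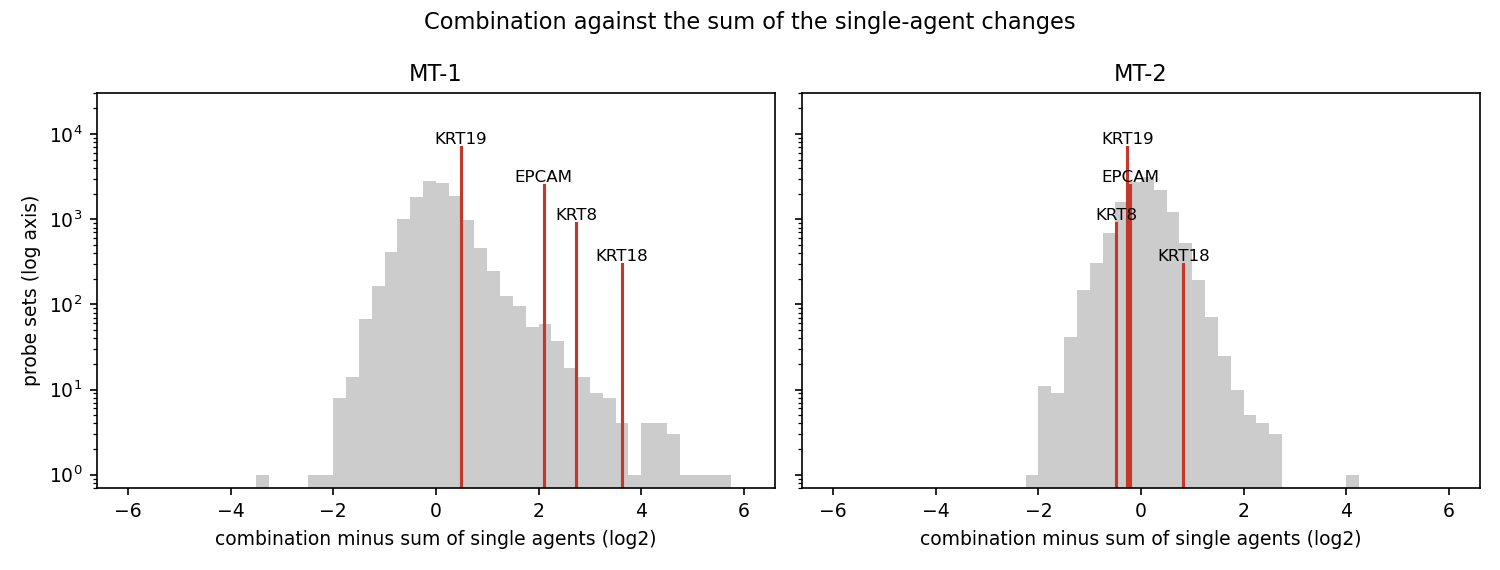
Number of kept probe sets (log axis) by the difference between the combination and the sum of the single-agent changes, in log2 units, for MT-1 and MT-2. Red lines mark 4 genes: in MT-1 KRT18 (3.62), KRT8 (2.73) and EPCAM (2.10) lie in the upper tail and KRT19 (0.49) does not, and in MT-2 all 4 lie between -0.49 and 0.82. In MT-2 KRT18, EPCAM and KRT19 were above background on 0 arrays, so their positions there are not measured.

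A fit across the lines gave no call. limma with cell line and treatment as terms, on all 8 arrays and 12942 probe sets, takes its spread from the difference between the responses of MT-1 and MT-2. For the combination it gave KRT8 a change of 2.44 ± 1.26 (SE, limma adjusted p = 0.332), KRT18 2.11 ± 0.91 (adjusted p = 0.274), EPCAM 1.81 ± 0.99 (adjusted p = 0.353) and KRT19 0.74 ± 0.58 (adjusted p = 0.490). In MT-2 a direction was measured for KRT8 only. It called 0 of the 4 genes for the combination, OR21, EPZ-6438 or the excess, and 0% of all probe sets in each (2489, 1079, 285 and 223 probe sets at an unadjusted p under 0.05). Left without the MT-2 combination array, the limma fit called KRT8 (4.78, adjusted p = 0.0320), KRT18 (3.88, adjusted p = 0.0110) and EPCAM (3.62, adjusted p = 0.0358), among 5.72% of probe sets called. KRT18 and EPCAM passed the filter only through the array on which that call rests. The value rests on the MT-1 combination array alone, assumed to vary as the other groups did. Whether MT-1 and MT-2 respond differently could not be tested with 1 array per group.

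Other epithelial genes were examined from lists chosen with earlier results of these data known. Of 43 other keratin gene symbols on the array, among them the KRT18 pseudogene KRT18P55, 6 were kept and KRT18P55 was not. With the combination in MT-1 a difference of 1 or more was seen upward in 2 of the 6 and downward in 0 (median 0.71, all kept probe sets -0.05), where 11.2% of kept probe sets lay upward. In MT-2 the counts were 0 and 0 (median -0.17), where 5.05% lay upward. KRT5, the type II keratin of basal epithelial cells, stood in MT-1 at 9.28 with the combination, 5.46 with OR21, 8.21 with EPZ-6438 and 6.43 in untreated cells. As for KRT19, the arrays with EPZ-6438 were the high ones (at least 1.82 for the combination and at least 0.75 for EPZ-6438). In MT-2 it was under background throughout. KRT7 and KRT16, named after their values were seen, were above background without treatment: KRT7 at 10.24 in untreated MT-2 and KRT16 at 9.62 in untreated MT-1 and 8.12 in untreated MT-2. In MT-1 KRT7 stood above background with the combination (8.005) and EPZ-6438 (7.41). It stood under background there with OR21 (7.25) and in untreated cells (6.78).

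Of 22 epithelial adhesion and junction genes on the array, 12 were kept. In MT-1 the combination gave 6 of the 12 higher by 1 or more and 1 lower (median 1.07). OR21 gave 5 and 0, and EPZ-6438 gave 2 and 0. Over kept probe sets 11.2%, 5.35% and 1.03% were higher, and 9.64%, 3.75% and 0.294% lower. Counted only where an array compared was above background, the higher genes numbered 4, 1 and 1. The share over all kept probe sets was not counted this way. In MT-2 the combination gave 2 higher and 1 lower (median -0.08), and OR21 and EPZ-6438 gave 0 and 0. Over kept probe sets 5.05%, 2.36% and 0.896% were higher there, and 1.95%, 1.69% and 0.355% lower. TJP1, the tight junction scaffold ZO-1, stood in MT-1 at 11.21 with the combination, 9.07 with OR21, 8.54 with EPZ-6438 and 7.64 in untreated cells, so that every treated array was above the untreated one. In MT-2 it was at most 4.52, under background. CLDN1, a tight junction claudin, stood at 9.85 with the combination and at most 6.13 on the other MT-1 arrays (at least 2.39 over untreated), like KRT18 on 1 array only. The desmosomal protein DSP, which ties keratin filaments to junctions, stood at 9.61 with the combination and 4.91 in untreated MT-1 cells (at least 2.15). OCLN (occludin) was higher with the combination in MT-1 by at least 1.11 and in MT-2 differed by -0.32 or lower. ITGA6, an integrin of hemidesmosomes, stood at 8.35 in untreated MT-1 cells. It was 1.09 higher there with EPZ-6438, but only 0.42 higher with the combination. CGN (cingulin), also of tight junctions, went the other way in MT-1, at 7.47 with the combination and 9.10 in untreated cells (-1.63). PKP2, named after its values were seen, was level in MT-1, at 10.92 with the combination and 10.895 in untreated cells.

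Of 23 epithelial regulators and membrane genes on the array, 13 were kept. With the combination 5 of 13 lay 1 or more over untreated cells in MT-1 (median 0.74) and 3 in MT-2 (median 0.00), where 11.2% and 5.05% of kept probe sets did, and none was lower. With OR21 the counts were 5 and 3 (5.35% and 2.36% of kept probe sets), and with EPZ-6438 1 and 2 (1.03% and 0.896%). Counted only where an array compared was above background, the higher genes in MT-1 numbered 3 with the combination and 2 with OR21. SFN (14-3-3 sigma, an epithelial checkpoint protein) stood in MT-1 at 11.66 with the combination and 8.13 in untreated cells, and in MT-2 at 9.72 with the combination and 6.79, under background, in untreated cells (at least 1.91). MAL2, an apical transport protein, stood in MT-1 at 8.89 with the combination, 8.43 with OR21 and 4.84 in untreated cells, so that OR21 and the combination were alike and both high. ST14, the membrane protease matriptase, stood at 8.74 with the combination and 3.98 in untreated MT-1 cells (at least 1.29). In MT-2 the epithelial transcription factors EHF and KLF5 were the high ones. EHF stood there at 10.80 with the combination, 8.45 with OR21, 7.77 with EPZ-6438 and 5.99 in untreated cells (at least 2.995 for the combination), while in MT-1 its highest level was 4.01. KLF5 stood in MT-2 at 10.22 with the combination, 8.50 with OR21, 8.62 with EPZ-6438 and 7.43 in untreated cells (at least 2.42 for the combination). In MT-1 KLF5 stood at 7.84 with the combination, 7.57 with OR21 and 7.61 with EPZ-6438, above background on each. In untreated MT-1 cells it stood at 7.09, under background (at least 0.38 for the combination). EHF and KLF5 were highest in MT-2, the line in which KRT18, KRT19 and EPCAM stayed under background. A link between these genes was not tested.

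Some genes of mesenchymal cells and repressors of CDH1 were higher in MT-1 with the combination. Of 10 on the array 8 were kept, and with the combination 4 of 8 lay 1 or more over untreated cells in MT-1 (median 0.58) and 1 in MT-2 (median 0.03), where 11.2% and 5.05% of kept probe sets did. Counted where an array compared was above background, these were 3 and 0. SNAI2 (Slug), a repressor of CDH1, stood in MT-1 at 9.81 with the combination, 5.55 with OR21, 5.27 with EPZ-6438 and 4.85 in untreated cells (at least 2.35). CDH2, the N-cadherin of neural and mesenchymal cells, stood at 11.03 with the combination, 10.44 with OR21, 7.16 with EPZ-6438 and 7.82 in untreated MT-1 cells (3.22 for the combination). The CDH1 repressor ZEB1, named after its values were seen, was at 8.96 with the combination and 9.26 in untreated MT-1 cells, and at 9.67 with the combination and 9.54 in untreated MT-2 cells. TCF4 was 1.23 over untreated MT-1 cells with the combination.

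**Figure D4:**
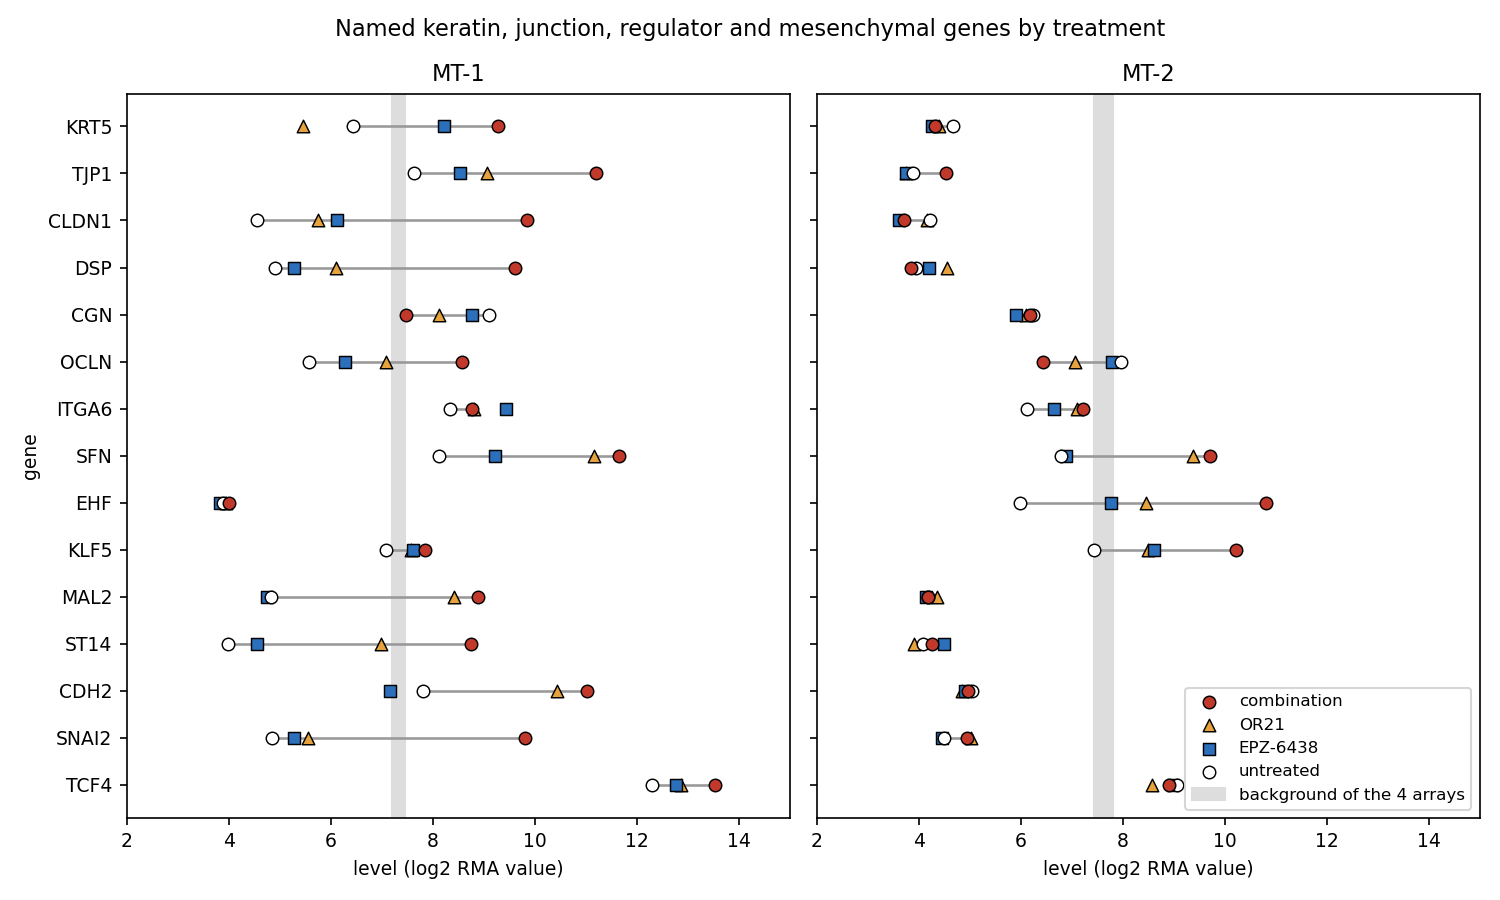
Level (log2 RMA value) of the named keratin, junction, regulator and mesenchymal genes in MT-1 (left) and MT-2 (right), 1 array per marker, with a line joining combination and untreated and the grey band spanning the backgrounds of the 4 arrays of the line. Among other genes, in MT-1 the combination marker of TJP1 (11.21), CLDN1 (9.85), DSP (9.61) and SNAI2 (9.81) lies right of the other treatments. In MT-2 those of EHF (10.80), KLF5 (10.22) and SFN (9.72, with OR21 at 9.37) do.

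Markers of other cell types were read on the same arrays. Of 11 fibroblast markers 0 to 3 stood above background per array, of 10 endothelial markers 0 to 3, and of 12 B cell, myeloid and NK cell markers 0 to 3. Summed over the list, log2 levels in MT-1 were 57.4 with the combination and 54.0 in untreated cells (fibroblast), 57.2 with the combination and 53.7 in untreated cells (endothelial), and 68.1 with the combination and 65.2 in untreated cells (B cell, myeloid and NK cell). On the MT-2 arrays the sums were 69.6 to 72.0 (fibroblast), 52.8 to 55.3 (endothelial) and 73.1 to 76.1 (B cell, myeloid and NK cell). COL1A1, DCN and PDGFRA, PECAM1, CDH5 and VWF, and CD14 and MS4A1 were above background on no array. The endothelial markers TIE1 (7.32) and ESAM (7.55) and the myeloid marker MPO (7.30) were above it on the MT-1 combination array only. CD79A was above background on 5 arrays and CD79B on 3. THY1 (11.756 to 12.001), the collagen chain COL6A3 (7.86 to 9.05) and NKG7 (10.85 to 11.41) were above it on every MT-2 array and on no MT-1 array, and the collagen chain COL1A2 on 3 arrays of each line. COL6A3 stood in MT-2 at 7.86 with the combination and 9.05 in untreated cells (-1.18). In MT-1 the endothelial and mesenchymal surface protein ENG stood at 9.75 with the combination and 7.71 in untreated cells. Of 5 endothelial markers kept, 3 were higher by 1 or more with the combination in MT-1 and 0 lower (median 1.45). In MT-2 these were 1 and 0 (median 0.17). Over kept probe sets 11.2% and 5.05% were higher. Counted where an array compared was above background, 2 endothelial markers were higher in MT-1 and 1 in MT-2. Of 11 T cell markers kept, 3 were higher by 1 or more and 3 lower with the combination in MT-1 (median -0.79). For MT-2 the counts were 1 and 1 (median 0.16). Over kept probe sets 11.2% and 5.05% were higher and 9.64% and 1.95% lower. Where an array compared was above background, 1 T cell marker was higher and 3 lower in MT-1, and 1 and 1 in MT-2. All kept probe sets were not counted in that way. The costimulatory receptor CD28 stood in MT-1 at 8.72 with the combination and 12.80 in untreated cells, and the adaptor LAT at 11.86 with the combination and 8.61 in untreated cells. CD247, the zeta chain of the T cell receptor complex, stood in MT-1 at 8.72 with the combination and 10.89 in untreated cells (-2.16), and in MT-2 at 8.48 with the combination and 9.74 in untreated cells (-1.25). The chemokine receptor CCR4 was at 11.17 with the combination and 12.77 in untreated MT-1 cells. The part of other cells in the keratin and EPCAM levels was not tested.

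The genes most alike in pattern were sought by Pearson's r over the 8 arrays, among 9568 named probe sets kept and above background on at least 1 array, as a description. Closest to KRT8 were CLDN10, a tight junction claudin (r = 0.995), TXNIP (0.990) and FILIP1L (0.989). Closest to EPCAM were FILIP1L (0.996), CLDN10 (0.995) and HOXD13 (0.993), and EPCAM itself had r = 0.994 with KRT8. Closest to KRT18 were HAND1 (0.991), MUC13, an epithelial mucin (0.986), and SNAI2 (0.985). KRT19 had NCOA5 (0.962), NUDT14 (0.959) and ANO7 (0.953), and r = 0.651 with KRT8. These values share the 8 arrays and rest largely on the MT-1 combination array: 55 probe sets exceeded r = 0.95 with KRT8, 71 with EPCAM, 29 with KRT18 and 3 with KRT19.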

How the data were processed

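Per the labels' protocols, DNase-treated total RNA was converted to biotin-labelled, fragmented single-stranded cDNA. The table the authors deposited holds log2 values made with RMA, per the submitters' processing notes. RMA corrects background, normalizes between arrays and summarises probe sets, the labels give no version, and base 2 is taken from RMA, since the table names none and its highest value, 18.9, shows further rescaling. RMA tends to understate differences of dim probe sets, and what the further rescaling did to differences is not known. Of 24351 entries, 2903 control probe sets were left out. Gene names came from the platform annotation.

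Probe sets whose highest value reached 6.573, the table's median, were kept for the fit (12942). limma 3.58.1 in R 4.3.3 (lmFit, eBayes, Benjamini-Hochberg, threshold 0.05) was tested on simulated data first. Python 3.11.15 did the rest. Alternatives were centring on array medians, cyclic loess, other filters and backgrounds, eBayes with trend, and each array left out. Named by rule were the 5 genes, list genes above background that differed by at least 1 in any treatment, and the 3 most alike in pattern. Some further list genes were named after their values were seen. The genes and lists were chosen with earlier results of these data known. The labels name no separate cultures. Precision is limited by having 8 arrays.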

Additional observations from a re-analysis of the deposited data

Results flagged for a closer look

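In some genes the lines lay on opposite sides of their untreated cells under the same treatment. With 1 array per group this was not tested. Several of the MT-2 values lay near 0 or near background, so opposite responses of the lines are not shown. KRT8 with the combination in MT-2 was 0.05 over background. In untreated MT-2, LAT (7.82) and OCLN (7.96) stood just over the background of 7.80. Background was 7.56 with OR21 and 7.64 with the combination, so their bounds partly reflect differing backgrounds. In MT-2 the combination minus untreated difference of KRT8 was -0.27, and in MT-1 it was 5.14. For OCLN, the tight junction protein occludin, it was -0.32 or lower in MT-2, while in MT-1 it was at least 1.11. The transcription factor TCF4 was at -0.16 in MT-2 with the combination, while MT-1 gave 1.23. Among T cell genes, the combination gave the adaptor LAT -0.18 or lower in MT-2, while MT-1 gave 3.24. The chemokine receptor CCR4 had 0.16 in MT-2, while MT-1 had -1.60. The surface receptor CD5 had 1.58 in MT-2, while MT-1 had -0.79. With OR21, LAT had -0.25 or lower in MT-2, while MT-1 had 1.96. The kinase ZAP70 had 0.039 in MT-2 with OR21, while MT-1 had -1.17.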

How the results depend on the processing

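Centring on medians or cyclic loess left the direction of each within-line difference tried for KRT8, KRT18, KRT19 and EPCAM. In the limma fit median centring turned KRT19 with OR21 (-0.0506, against 0.0534 uncentred) and EPCAM with EPZ-6438 (-0.0176, against 0.0176 uncentred). Over all probe sets, the combination had 0 calls, 14 with a trended robust prior and 740 without the MT-2 combination array. Setting levels under background to it in MT-1 gave, for the combination over untreated cells, 1.64 (KRT18), 0.81 (KRT19) and 1.20 (EPCAM), over OR21 1.80 (KRT18) and 0.97 (KRT19), and over EPZ-6438 1.83 (KRT18) and 1.39 (EPCAM). KRT19 with EPZ-6438 alone then gave 0.40. With the 90th percentile as background, chosen after seeing the data, the combination gave 2.33 (KRT18) and 1.89 (EPCAM) over untreated cells, 2.54 over OR21 (KRT18), and 2.39 (KRT18) and 1.95 (EPCAM) over EPZ-6438. With the 99th percentile (9.27 on the MT-1 combination array), KRT18, KRT19 and EPCAM were above it on no array, KRT8 on 2, and in MT-1 KRT8 with the combination exceeded EPZ-6438 alone by 3.52 and untreated cells by 4.23, and OR21 exceeded untreated cells by 1.34. With each array left out in turn, the limma change for the combination ranged from 0.10 to 4.78 (KRT8), 0.33 to 3.88 (KRT18), 0.0005 to 3.62 (EPCAM) and -0.0464 to 1.53 (KRT19, turned without the MT-1 combination array), and 0 to 3 genes were called. For the combination, higher keratins in MT-1 numbered 1 after median centring, higher regulators in MT-1 8 without a filter and 3 where above background, and higher junction genes in MT-2 1 where above background. Levels near background limit all 5 genes, KRT8 through its untreated, EPZ-6438 and MT-2 arrays.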

Other observations

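CTNNB1 and CTNNA1, intracellular partners of E-cadherin, were above background on all 8 arrays, although CDH1 was on none. JUP (plakoglobin), a further such partner, and the integrin chain ITGB7 were under background throughout (4.96 to 6.51 and 4.72 to 6.55). Of 7 cadherin partners and receptors on the array, 5 were kept. With both compounds, 2 of those 5 exceeded untreated MT-1 cells by at least 1 (median 0.16, 11.2% of kept probe sets). For MT-2 that count was 0 (median 0.36, 5.05% of kept probe sets). CTNNB1 (beta-catenin) stood in MT-1 at 13.75 with the combination and 12.69 in untreated cells, and in MT-2 at 13.23 with the combination and 12.66 in untreated cells. CTNNA1 (alpha-catenin), which links the complex to actin, stood in MT-1 at 12.57 with the combination and 11.28 in untreated cells, and in MT-2 at 12.69 with the combination and 12.62 in untreated cells. ITGAE, named after its values were seen and the integrin chain by which T cells bind E-cadherin, stood in MT-1 at 10.87 with the combination and 10.71 in untreated cells, and in MT-2 at 7.95 with the combination and 7.74, under background, in untreated cells.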
